A study of Xenopus laevis with 64 samples.

Results

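The tail and the hindlimb of untreated Xenopus laevis tadpoles were compared on 18 of the 64 arrays of the series. The members were all 9 tail arrays and all 9 hindlimb arrays labelled as controls in the inhibitor, T3 and T4 exposure sets, taken from the sample titles. Each array held the amplified, P32-labelled RNA of 1 animal on a small cDNA array, per the labels. The tails were taken at 48 h and the hindlimbs at 24 h of an exposure that began at NF stage 54 (NF is the Nieuwkoop and Faber staging of the frog), so the 2 organs came from different animals, and tissue and time cannot be told apart in this comparison.

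The 9 tails fell into 3 of the inhibitor set, 3 of the T3 set and 3 of the T4 set, and the 9 hindlimbs likewise. All came from tadpoles that received no hormone and no inhibitor. Controls of the hormone sets were kept in LSW, the labels' name for the control water. No strain, sex or transgene is given, and the sources used here do not say which animals were kept in 1 tank. The p-values below therefore rest on the spread between arrays of 1 animal each, and a spread between tanks could not be separated. That spread holds the handling of each array as well as the animal. In the joint fit it also holds any change of the tissue difference between exposure sets. Each set of arrays shared organ, time and exposure set, so none held both tails and hindlimbs. A shift of a whole set of arrays can therefore not be told apart from a tissue difference within an exposure set. The inhibitor set also held 3 control hindlimbs taken at 96 h. The exposed animals of the same sets, 17 tails at 48 h and 17 hindlimbs at 24 h, had received T3 (1.92 nM), T4 (10 nM) or an inhibitor of the thyroid, perchlorate (PER) at 4 mg/L, propylthiouracil (PTU) at 20 mg/L or methimazole (MMI) at 100 mg/L.

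At the stages used here the hindlimb of a tadpole is a growing organ whose cells divide and lay down cartilage and new muscle. The tail is a swimming organ built of contractile muscle around a notochord and will later be resorbed under thyroid hormone. Cyclins and their kinases drive the cell cycle, desmin ties muscle fibrils together, tropomyosins bind actin, and glycolysis fuels rapid swimming. In RNA from an organ of many cell types, fewer cells of a type and less RNA per cell cannot be told apart.

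The spots form 406 neighbouring duplicate pairs, and a pair was called above background on an array where its mean intensity exceeded 2 SD of that array's noise. Between 31 and 65 pairs were above background on a tail array, against 32 to 69 on a hindlimb array, and the means of 47.7 ± 12.5 for tails and 48.8 ± 12.5 for hindlimbs (SD, n = 9 each) differed by less than this spread (exact two-sided permutation test within exposure sets, p = 0.865 over 8000 arrangements). Only 70 pairs were above background on at least 3 of the 18 arrays and were tested, 41 of them with a gene name, and 265 pairs were above background on none. Levels are given as normalized log2 intensity, and differences as tail minus hindlimb on that scale. A level cannot be set against that of another pair, since spots differ in length and in how they bind. The endings L and S of gene names mark the 2 subgenomes of Xenopus laevis.

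The tissues differed in 31 of the 70 tested pairs (44.3%) at an adjusted p under 0.05 in limma, with the exposure set as a term. Of these, 18 were higher in tail (25.7% of those tested) and 13 were lower in tail (18.6%). The named genes that were higher in tail were 2 muscle structural genes, 3 glycolytic enzymes, 2 genes of the thyroid hormone list and 2 genes of calcium handling. The named genes that were lower in tail were 4 cell cycle genes, the glycolytic enzyme gapdh.S (3 pairs), the muscle determination gene myf5.L, the repressor rest.S and the adaptor ywhab.L. The split depended on scaling: 15 of 33 calls were higher in tail with median centring, 26 of 37 with centring on 9 bright pairs, and 13 of 30 in the deposited scaling. The median difference over all tested pairs was 0.03, and these scalings moved it by -0.18, 0.42 and -0.24. Cyclic loess moved it by 0.13 and gave 18 of 32 calls higher in tail.

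**Figure D1:**
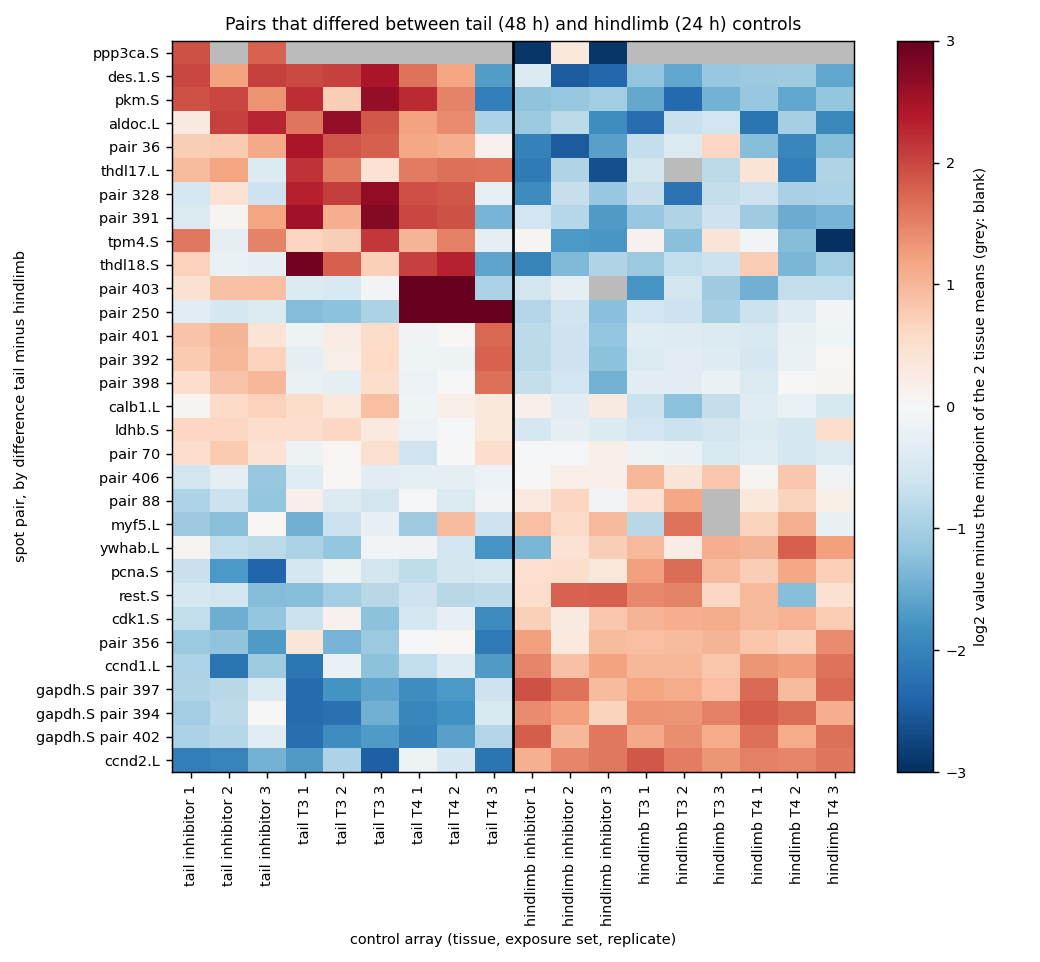
Levels of the 31 pairs that differed, 1 row for each pair and 1 column for each control array, tails left of the line and hindlimbs right of it. Colour is the log2 value minus the midpoint of the 2 tissue means, red above and blue below, and grey marks a blank. Tail replicate 3 of the T4 set is blue for des.1.S, pkm.S and thdl18.S where the other 8 tails are mostly red.

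In 8 of the 70 pairs (11.4%) the 9 tails and the 9 hindlimbs did not overlap at all. Of these, 7 were lower in tail (10%), namely the 3 gapdh.S pairs, ccnd2.L, ccnd1.L, cdk1.S and pcna.S, and 1 was higher in tail (1.43%), ppp3ca.S, which had only 2 tail values and 3 hindlimb values. In 22 of the 31 called pairs, each of the 9 tails lay on the called side of the hindlimb mean. The called pairs were selected on these same values, so this count is a description only. It was not set against the share over all 70 pairs.

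Tail replicate 3 of the T4 set stood apart from the other tails before any gene was compared. Its profile over the tested pairs correlated with the mean of the other tails with r = 0.50, while the other 8 tails gave 0.73 to 0.86. With the hindlimb mean it gave r = 0.48, within the 0.21 to 0.51 of the other tails. It also had the fewest pairs above background, 31. The differences of des.1.S, pkm.S, aldoc.L and thdl18.S are given with and without it.

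The cell cycle genes that could be tested were lower in tail than in hindlimb. All 4 cell cycle pairs that could be tested were lower in tail, against 18.6% of all 70 pairs, with a median difference of -2.04 against 0.03 over all 70 pairs, and the other 22 of the 26 cell cycle pairs on the array were too dim to test. The 4 that were bright enough were the D-type cyclins ccnd2.L and ccnd1.L, which drive cells out of G1, the mitotic kinase cdk1.S, and the replication clamp pcna.S. In the inhibitor set, ccnd2.L, ccnd1.L and cdk1.S were above background on 3 of 3 hindlimbs at 24 h and on 0 of 3 tails. A pair bright in hindlimb alone could pass the filter, so the share of these 4 is no test of the cell cycle genes as a class.

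The cyclin ccnd2.L lay between 9.60 and 11.89 (median 10.33) in tails, against 13.09 to 13.91 (median 13.55) in hindlimbs. Every tail lay more than 1 log2 unit below the lowest hindlimb. The difference was -2.98 (95% interval -3.56 to -2.41, adjusted p = 5.63e-08, limma), 7.91-fold lower in tail, where the pair was above background on 2 of 9 arrays, against 9 of 9 in hindlimb. For ccnd1.L the tails lay between 9.11 and 11.09 (median 10.23), against 12.13 to 12.92 (median 12.49) in hindlimbs. Here too the groups were separate, and the difference was -2.35 ± 0.26 (SE, adjusted p = 5.7e-07, limma).

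The kinase cdk1.S lay between 9.45 and 11.46 (median 10.59) in tails, against 11.60 to 12.45 (median 12.30) in hindlimbs. The highest tail and the lowest hindlimb were only 0.15 apart, and the difference was -1.73 ± 0.23 (SE, adjusted p = 4.84e-06, limma). The clamp pcna.S was the one cell cycle gene above background on all 9 tails as well as all 9 hindlimbs. Its tails lay between 10.83 and 13.04 (median 12.64), against 13.53 to 14.87 (median 13.92) in hindlimbs, a difference of -1.72 ± 0.21 (SE, adjusted p = 1.79e-06, limma). Each of the 4 passed the test within each of the 3 exposure sets as well, with differences of -3.26 to -2.48 for ccnd2.L, -2.57 to -2.14 for ccnd1.L, -1.81 to -1.66 for cdk1.S and -2.03 to -1.46 for pcna.S.

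**Figure D2:**
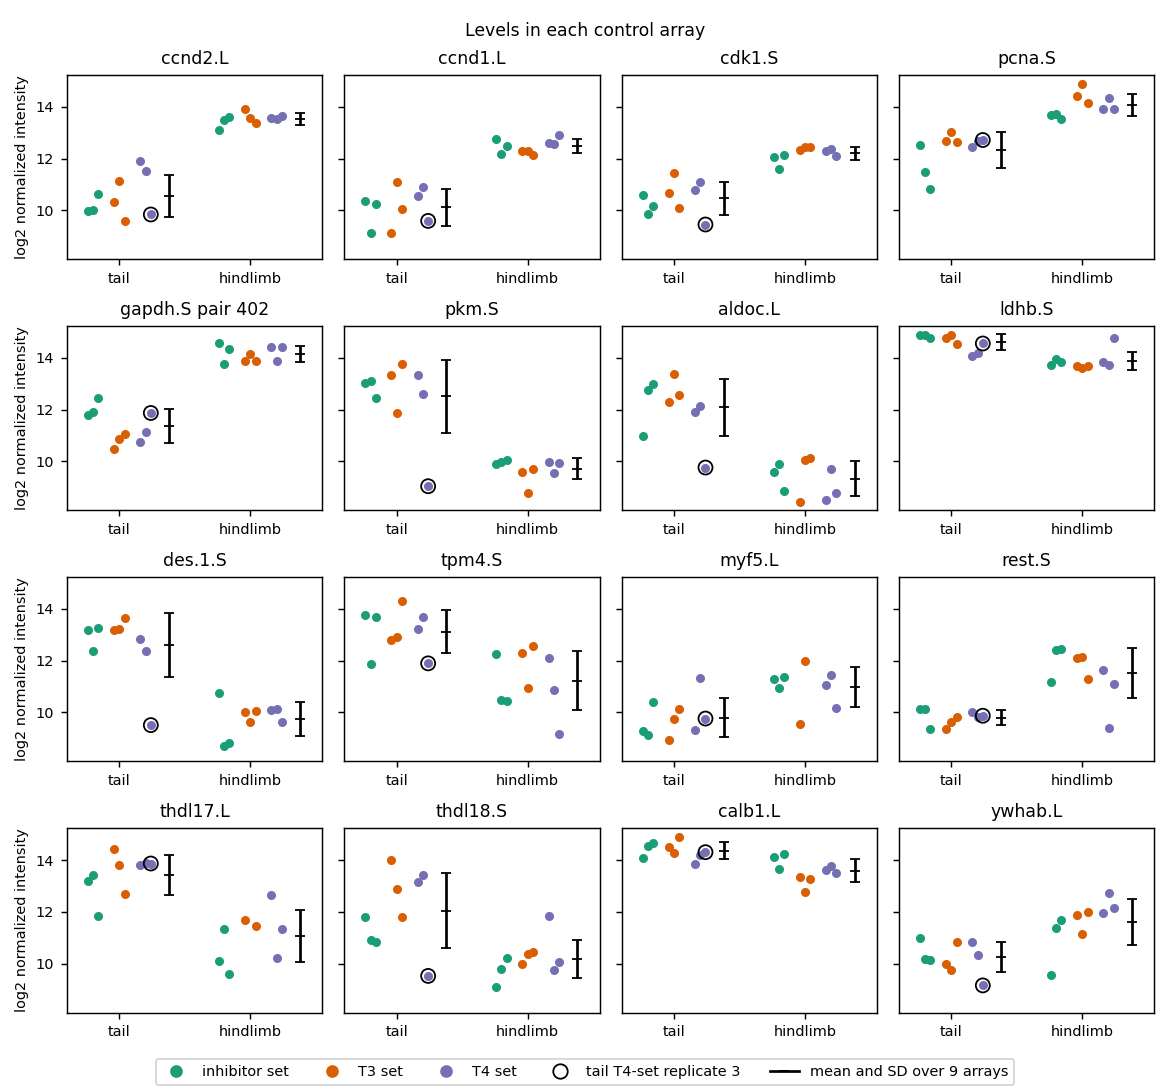
Normalized log2 intensity of 16 genes in every control array, tails at the left of each panel and hindlimbs at the right. Points are animals coloured by exposure set, bars are the mean and SD over 9 arrays (8 hindlimbs for myf5.L and thdl17.L), and the ring marks tail replicate 3 of the T4 set. The points of ccnd2.L, ccnd1.L, cdk1.S, pcna.S and gapdh.S pair 402 form separate groups by tissue, while those of myf5.L and rest.S overlap.

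Muscle genes went in 2 directions. Of the 7 muscle pairs on the array 3 were tested: desmin (des.1.S), the intermediate filament that ties muscle fibrils together, and tropomyosin 4 (tpm4.S), an actin-binding protein, were higher in tail, and myf5.L, a transcription factor that commits cells to the muscle lineage, was lower in tail. The median of the 3 was 1.89. The level of des.1.S lay between 9.51 and 13.63 (median 13.18) in tails, against 8.70 to 10.75 (median 10.01) in hindlimbs. All tails but 1 lay above every hindlimb, and the exception was tail replicate 3 of the T4 set. No hindlimb array was above background for des.1.S, so its level there is only a bound: the mean of 12.62 ± 1.24 in tails and 9.76 ± 0.65 in hindlimbs (SD, n = 9 each) correspond to at least 3.56-fold more in tail (adjusted p = 2.07e-05, limma). The fitted difference was 2.86, and 3.32 without that tail.

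For tpm4.S the tails lay between 11.88 and 14.29 (median 13.21), against 9.17 to 12.56 (median 10.93) in hindlimbs. The groups overlapped, and the difference was 1.89 ± 0.43 (SE, adjusted p = 0.00154, limma). The values of myf5.L lay between 8.95 and 11.35 (median 9.74) in tails, against 9.56 to 12.01 (median 11.18) in the 8 hindlimbs with a value. Most tails lay below most hindlimbs, with 1 high tail in the T4 set and 1 low hindlimb in the T3 set, and the difference was -1.17 ± 0.37 (SE, adjusted p = 0.0148, limma). This pair was above background on 1 of 9 tails, against 6 of 9 hindlimbs, and it passed in none of the 3 sets taken singly from the joint fit. In the fit of the inhibitor-set controls alone, normalized with the hindlimbs at 96 h, it differed by -1.50 from hindlimb at 24 h (adjusted p = 0.0142) and by -0.88 from hindlimb at 96 h (adjusted p = 0.155, limma). The low hindlimb of the T3 set is deposited as exactly 0.

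A separate list of cell type markers held 4 muscle pairs of the array. Their summed deposited intensity had a median of 17857 in tails (2491 to 33635), against 4524 in hindlimbs (447 to 11184). This sum is a description only, since deposited intensities of the sets were not on 1 scale. It also adds myf5.L, which was lower in tail, to genes that were higher. The fourth of these markers, myf6.L, was above background on no array. The markers of other organs gave little: col2a1.L of notochord and cartilage, bmp7.1.L, neurod1.L of neurons and mbp.S of myelin were above background on no array, pitx1.L, a hindlimb identity factor, on 1 tail and no hindlimb, and no marker of epidermis or immune cells was on the array. The labelled tissues could therefore be checked against muscle genes only. The blood marker hbd.S, a haemoglobin, had levels of 11.47 ± 0.76 in tails and 11.25 ± 0.62 in hindlimbs (SD, n = 9 each), with a difference of 0.22 (adjusted p = 0.61, limma). The part that the share of muscle cells had in the differences of other genes was not tested.

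Glycolytic enzymes were split. Pyruvate kinase (pkm.S), which makes pyruvate and ATP in the last step, aldolase C (aldoc.L), which cleaves the 6-carbon sugar, and lactate dehydrogenase B (ldhb.S), which interconverts pyruvate and lactate, were higher in tail, while the 3 pairs of glyceraldehyde-3-phosphate dehydrogenase (gapdh.S) were lower in tail. All 6 tested glycolysis pairs passed, against 44.3% of all 70 pairs, with a median of -0.97 that lies between these 2 groups. The 6 pairs cover 4 genes, since 3 of them are of gapdh.S. A pair bright in tail alone could pass the filter, and pkm.S and aldoc.L did so. The share is therefore no test of the glycolysis genes as a class, and the same limit holds for the lists below.

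The level of pkm.S lay between 9.04 and 13.76 (median 13.03) in tails, against 8.78 to 10.07 (median 9.92) in hindlimbs. Again 8 tails lay above every hindlimb and tail replicate 3 of the T4 set lay among them. The pair was above background on 8 tails and on no hindlimb, and means of 12.51 ± 1.42 in tails and 9.72 ± 0.40 in hindlimbs (SD, n = 9 each) gave at least 3.42-fold more in tail (fitted difference 2.79, adjusted p = 6.11e-05, limma). For aldoc.L the tails lay between 9.76 and 13.36 (median 12.31), against 8.43 to 10.15 (median 9.61) in hindlimbs. It too was above background on 8 tails and no hindlimb, and means of 12.09 ± 1.11 in tails and 9.33 ± 0.68 in hindlimbs (SD, n = 9 each) gave at least 2.56-fold more in tail (fitted difference 2.76, adjusted p = 8.05e-06, limma). Without tail replicate 3 of the T4 set the fitted differences were 3.30 for pkm.S and 3.07 for aldoc.L.

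The enzyme ldhb.S was bright in both organs, at 14.06 to 14.88 (median 14.77) in tails, against 13.61 to 14.77 (median 13.74) in hindlimbs. Tail values of 14.88 lie at the top of the scale set by quantile normalization, which can cap a difference. A single hindlimb, replicate 3 of the T4 set, lay among the tails, and the next highest read 13.97. The difference was 0.74 ± 0.19 (SE, adjusted p = 0.00315, limma). It was not called with median centring, in the deposited scaling, or without the inhibitor set or the T3 set.

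The 3 gapdh.S pairs gave nearly the same result. Over the 18 arrays they correlated with each other with r = 0.97 to 0.99, and on an array they differed by 0.03 to 0.88 (median 0.39). Pair 402 lay between 10.49 and 12.44 (median 11.13) in tails, against 13.76 to 14.58 (median 14.14) in hindlimbs. Tails and hindlimbs were 1.32 apart at the nearest, the widest gap among the called pairs with values on all 18 arrays, and the difference was -2.78 (95% interval -3.23 to -2.32, adjusted p = 1.26e-08, limma), 6.85-fold lower in tail. Pairs 397 and 394 gave -2.67 ± 0.22 and -2.69 ± 0.29 (SE, adjusted p = 1.94e-08 and 3.51e-07, limma). In the deposited intensities pair 402 lay between 1232 and 2077 in tails, against 15312 to 39687 in hindlimbs. Pairs 402 and 397 were above background on 0 of 3 control tails of the T3 set, and pair 394 on 1 of 3. All 3 pairs were above background on 3 of 3 control tails of the inhibitor and T4 sets. The 6.85-fold of pair 402 therefore includes tails that were not above background. In tail replicate 3 of the T4 set pair 402 read 11.87, within the range of the other tails.

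**Figure D3:**
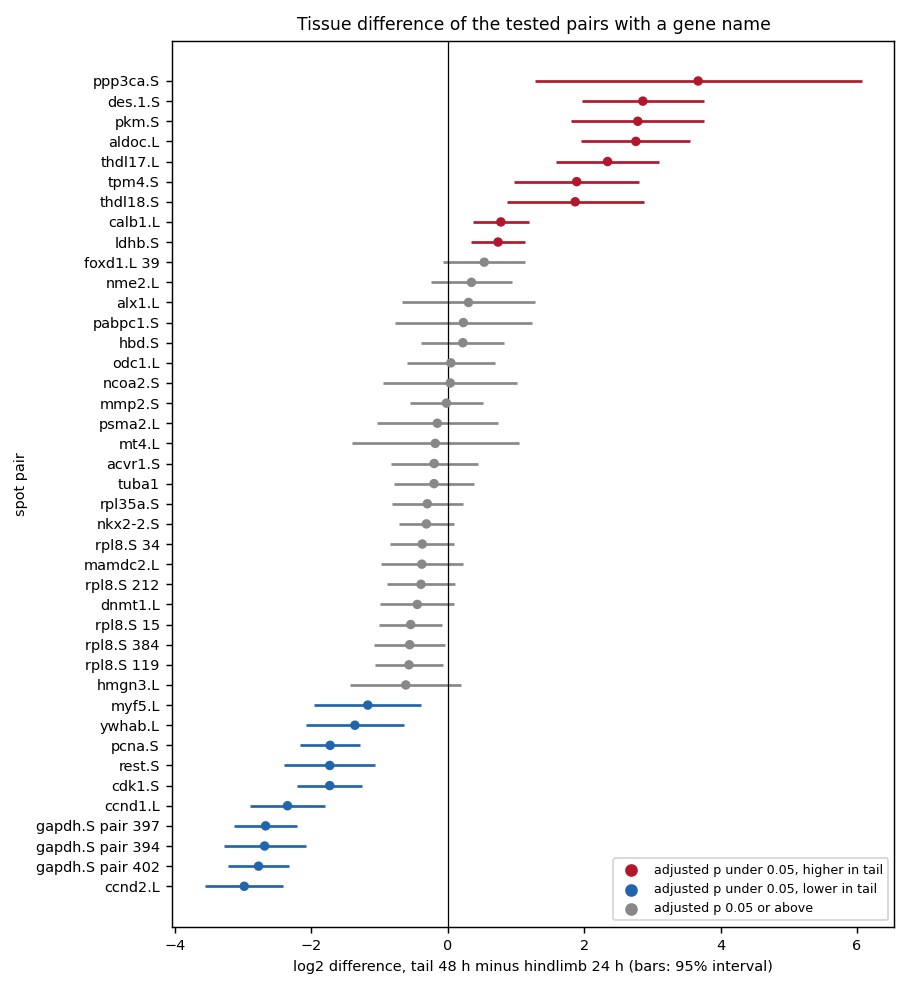
Fitted difference of each tested pair with a gene name, tail at 48 h minus hindlimb at 24 h, with its 95% interval. Red marks the 9 pairs higher in tail and blue the 10 lower in tail at an adjusted p under 0.05, and the grey pairs between them did not pass. Intervals are widest for ppp3ca.S, which had 5 values.

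Of the 21 pairs of nuclear receptors and the hormone axis, 3 were tested and 2 were higher in tail, against 25.7% of all 70 pairs. The genes thdl17.L and thdl18.S belong to the marker list of thyroid hormone response. That list does not say whether the hormone raises or lowers a gene. A higher level of these genes in tail is therefore no measure of more or less hormone response there. Levels of thdl17.L lay between 11.84 and 14.41 (median 13.80) in tails, against 9.62 to 12.67 (median 11.34) in the 8 hindlimbs with a value. The lowest hindlimb, replicate 3 of the inhibitor set, is deposited as exactly 0. The groups overlapped at their edges, and the difference was 2.34 ± 0.36 (SE, adjusted p = 3.28e-05, limma). Tail replicate 3 of the T4 set read 13.86 here, like the other tails.

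Levels of thdl18.S lay between 9.52 and 14.01 (median 11.82) in tails, against 9.11 to 11.84 (median 10.07) in hindlimbs. The difference was 1.87 ± 0.48 (SE, adjusted p = 0.00315, limma), and 2.30 without tail replicate 3 of the T4 set, which read 9.52. The highest hindlimb was replicate 1 of the T4 set, and the next read 10.46. The response markers fap.L, mmp9.1.S (a matrix protease) and thibz.L (a transcription factor) were above background on none of the 18 arrays. The coactivator ncoa2.S, which binds nuclear receptors, differed by 0.04 (adjusted p = 0.938, limma).

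Among 5 tested pairs of chromatin and transcription, 1 was lower in tail, against 18.6% of all 70 pairs. The repressor rest.S, known for silencing neuronal genes outside neurons, lay between 9.37 and 10.13 (median 9.84) in tails, against 9.38 to 12.46 (median 11.64) in hindlimbs. All hindlimbs but replicate 2 of the T4 set lay above all tails. It was above background on no tail and on 7 hindlimbs, and means of 9.80 ± 0.29 in tails and 11.53 ± 0.96 in hindlimbs (SD, n = 9 each) correspond to at least 1.69-fold less in tail (fitted difference -1.73, adjusted p = 0.000164, limma). The other 4 differed by -0.62 (hmgn3.L, a nucleosome-binding protein), -0.45 (dnmt1.L, the maintenance DNA methyltransferase), -0.31 (nkx2-2.S, a homeobox factor) and 0.53 (foxd1.L pair 39, a forkhead factor), and none passed (adjusted p = 0.15 to 0.204, limma).

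Of 4 tested signalling pairs, 2 were higher and 1 was lower in tail, against 25.7% and 18.6% of all 70 pairs. The calcium-binding protein calbindin (calb1.L) lay between 13.84 and 14.87 (median 14.30) in tails, against 12.75 to 14.25 (median 13.61) in hindlimbs. Most of its difference of 0.78 ± 0.20 (SE, adjusted p = 0.00315, limma) lay in the T3 set, where it was 1.44, against 0.41 in the inhibitor set and 0.48 in the T4 set, and the test of a difference between the sets gave an adjusted p of 0.172 in limma. The adaptor ywhab.L, a 14-3-3 protein that binds phosphorylated partners, lay between 9.16 and 11.00 (median 10.19) in tails, against 9.57 to 12.72 (median 11.90) in hindlimbs. The lowest hindlimb, replicate 1 of the inhibitor set, lay among the tails, and the difference was -1.36 ± 0.34 (SE, adjusted p = 0.00311, limma).

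The catalytic subunit of the calcium-dependent phosphatase calcineurin, ppp3ca.S, had values in the inhibitor set only, and the fit dropped the other sets. It read 14.43 and 14.31 in 2 tails, against 9.62, 12.86 and 9.62 in 3 hindlimbs. Both hindlimb values of 9.62, of replicates 1 and 3, are deposited as exactly 0, which may be a missing value, and the third hindlimb lay within 2 log2 units of the tails. The fitted difference of 3.67 ± 1.01 (SE, adjusted p = 0.021, limma) rests on them and was not called when either was left out. The receptor acvr1.S, which binds activins and BMPs, differed by -0.20 (adjusted p = 0.635, limma).

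Several groups of genes gave no call. None of 7 translation pairs passed: the 5 pairs of ribosomal protein rpl8.S differed by -0.57 to -0.37 (adjusted p = 0.0532 to 0.193), rpl35a.S by -0.30 and the poly(A)-binding protein pabpc1.S by 0.23. The median of the 7 was -0.39, against 0.03 over all pairs, and 1 of the rpl8.S pairs, pair 15, passed without tail replicate 3 of the T4 set (adjusted p = 0.0451, limma). None of 4 stress genes passed, with differences of -0.18 for the metallothionein mt4.L, -0.15 for the proteasome subunit psma2.L, 0.05 for ornithine decarboxylase odc1.L and 0.35 for the nucleoside diphosphate kinase nme2.L. The 95% interval of mt4.L was wide, at -1.41 to 1.04. The matrix genes mamdc2.L (-0.38) and mmp2.S, a gelatinase (-0.02), the tubulin tuba1 (-0.20) and the homeobox gene alx1.L (0.30) did not pass either (adjusted p = 0.303 to 0.938, limma). No pair of the apoptosis list (9 pairs) or of the nervous system list (9 pairs) was bright enough to test.

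Of the 29 tested pairs without a gene name, 9 were higher and 3 were lower in tail, against 25.7% and 18.6% of all 70 pairs. The largest of these differences was that of pair 36, which lay between 11.38 and 13.70 (median 12.39) in tails, against 8.76 to 11.88 (median 9.97) in hindlimbs. A single hindlimb, of the T3 set, lay above the lowest tail, and the difference was 2.48 ± 0.23 (SE, adjusted p = 7.32e-08, limma). The unnamed pairs given by number below were chosen after their values were seen. Pairs 391, 328 and 403 were above background on 8, 6 and 5 tails and on no hindlimb, with bounds of at least 2.98-fold, 1.87-fold and 1.32-fold more in tail. Pair 403 read 14.30, 13.83 and 9.30 in the tails of the T4 set, against 10.70 to 11.15 in the inhibitor set and 9.78 to 10.17 in the T3 set. Its mean in tails was thus raised mostly by the T4 set. Pair 391 and pair 328 had means of 12.38 ± 1.41 and 11.64 ± 1.32 in tails, against 10.21 ± 0.38 and 9.44 ± 0.58 in hindlimbs (SD, n = 9 each). These means and bounds include tail replicate 3 of the T4 set, which read 9.91 for pair 391 and 10.29 for pair 328. Pair 154 read 7.99 in that tail and 13.34 to 14.54 in the other tails, and its difference of 0.10 was not called. Pair 356 was lower in tail by -1.84 ± 0.30 (SE, adjusted p = 5.13e-05, limma). A set of 3 other unnamed pairs varied together over the 18 arrays (r = 0.94 to 0.99) and were higher in tail by 0.87 to 1.02, and none of the 3 passed without the inhibitor set. Pair 70 had the smallest called difference, 0.45, and its sign turned with median centring (-0.15) and in the deposited scaling (-0.21).

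The 3 exposure sets each gave their own comparison of tail and hindlimb, with 3 animals in each organ. At an adjusted p under 0.05 in limma, 22 of 70 pairs differed in the inhibitor set (31.4%), 28 of 69 in the T3 set (40.6%) and 20 of 69 in the T4 set (29%). The direction of the joint fit was found in all 3 sets for 29 of the 30 called pairs that had values in each. Pair 250 was the exception. Since the joint fit is made from these sets, this is a description of its parts. The differences of des.1.S, pkm.S and aldoc.L were smallest in the T4 set, which holds the tail that stood apart: des.1.S differed by 3.51, 3.45 and 1.62 in the inhibitor, T3 and T4 sets, and pkm.S by 2.88, 3.64 and 1.84. The difference of ldhb.S was also smallest in the T4 set, but for ldhb.S that tail read 14.55, above the other tails of the set at 14.06 and 14.18. Without that tail the T4 values were 2.73 for des.1.S and 3.23 for pkm.S. For tpm4.S the difference was smallest in the T3 set (2.05, 1.41 and 2.21). For the 3 gapdh.S pairs it was smallest in the inhibitor set (pair 402 at -2.18, -3.16 and -2.99). In the T3 set pair 402 was above background on 0 of 3 control tails, so the size of -3.16 is uncertain.

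**Figure D4:**
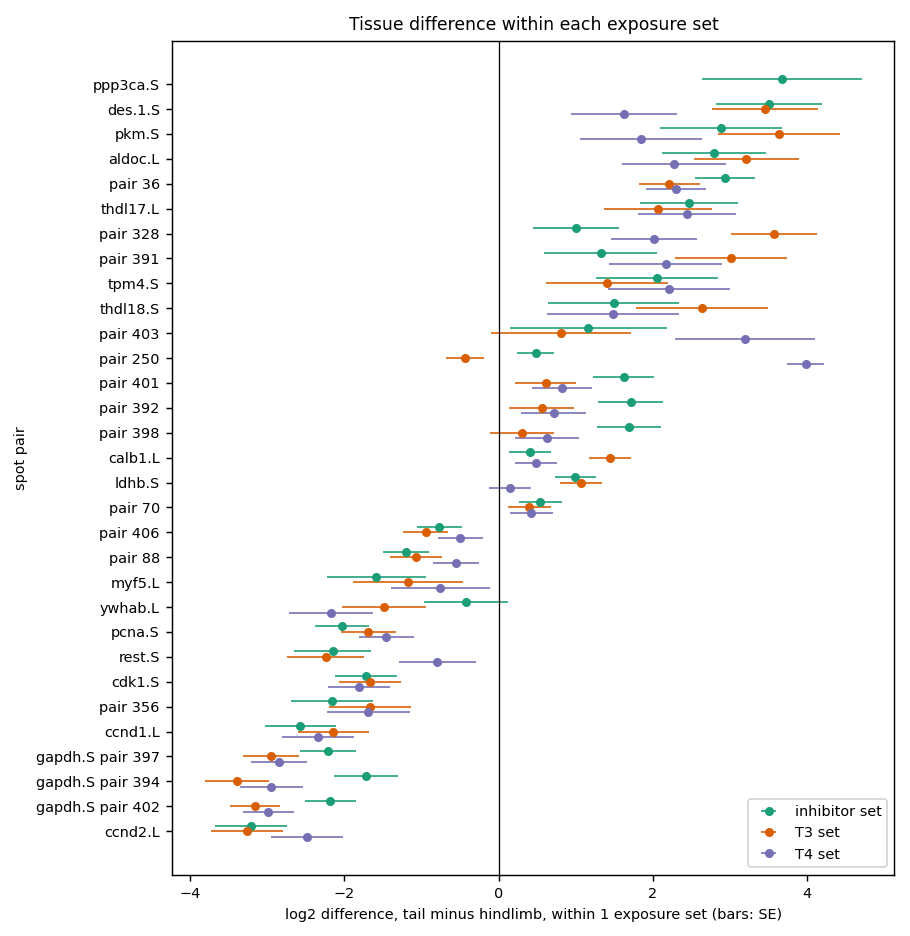
Difference between tail and hindlimb within each exposure set for the 31 called pairs, with SE bars. Points of the 3 sets lie on the same side of 0 for 29 of the 30 pairs with values in all sets, and pair 250 lies at 3.98 in the T4 set, against 0.48 and -0.44 in the inhibitor and T3 sets.

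The size of the tissue difference itself differed between sets in 3 of 69 pairs (4.35%) by the interaction test in limma, all without a gene name. Pair 250 differed by 0.48, -0.44 and 3.98 in the inhibitor, T3 and T4 sets (adjusted p = 2.31e-07), pair 123 by 1.62, -3.29 and -0.04 (adjusted p = 0.0155), and pair 404 by 1.63, 0.07 and -0.25 (adjusted p = 0.0158). The count was 18 of 69 without tail replicate 3 of the T4 set, and these 18 included all 5 rpl8.S pairs. Without that tail those 5 differed by 0.29 to 0.45 in the inhibitor set, by -1.16 to -0.87 in the T3 set and by -1.34 to -0.95 in the T4 set, and with all 18 arrays by -0.98 to -0.61 in the T4 set. Control tails differed among the sets in 4 of 69 pairs (5.8%), namely pairs 123, 250, 328 and 404, and control hindlimbs in 1 of 69 (1.45%), pair 36 (adjusted p = 0.0495).

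The 3 control hindlimbs taken at 96 h bracket the tail time from the other side. Normalized with the other inhibitor-set controls, tails at 48 h differed from hindlimbs at 96 h in 27 of 57 pairs (47.4%), 18 higher and 9 lower in tail, and from hindlimbs at 24 h in 29 of 58 pairs (50%), 18 higher and 11 lower. Both contrasts share the 3 tail arrays, so their values are given side by side only. In the deposited scaling the first contrast gave 0 higher and 20 lower.

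The tested cell cycle genes were lower in tail at either hindlimb time. Against hindlimbs at 96 h and at 24 h, ccnd2.L differed by -3.30 and -3.10, ccnd1.L by -2.63 and -2.41, pcna.S by -2.01 and -2.09, and cdk1.S by -1.54 and -1.57 (adjusted p = 3.96e-05 to 0.018, limma). The genes higher in tail included des.1.S (2.48 and 3.36), pkm.S (2.95 and 2.72), aldoc.L (2.69 and 2.66) and thdl17.L (2.21 and 2.38), all past the threshold in both. Past it at 24 h only were thdl18.S (0.71 and 1.44), ldhb.S (0.39 and 1.12) and pair 36 (0.72 and 2.79). Past it at 96 h only were tpm4.S (3.05 and 2.07) and pair 250 (0.80 and 0.47). In neither contrast did calb1.L (0.77 and 0.52) or pair 391 (0.74 and 1.26) pass. Within hindlimb, pair 36 was higher at 96 h than at 24 h by 2.07 (adjusted p = 0.0112, limma). Other genes gave unlike values. For rest.S the differences were -0.41 at 96 h (adjusted p = 0.487) and -2.01 at 24 h (adjusted p = 0.00316), and for ywhab.L they were -1.98 at 96 h (adjusted p = 0.0104) and -0.37 at 24 h (adjusted p = 0.565). The metallothionein mt4.L differed by 2.37 at 96 h (adjusted p = 0.023) and by -1.39 at 24 h (adjusted p = 0.163, limma). Neither rest.S nor mt4.L was above background on any hindlimb at 96 h, and rest.S was above it on no tail of this set. The -0.41 of rest.S thus sets levels near background against each other, and the 2.37 of mt4.L is against a level near background.

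Hindlimbs at 96 h differed from hindlimbs at 24 h in 8 of 57 pairs (14%). Among them rest.S was lower at 96 h by -1.60 (adjusted p = 0.0283) and mt4.L by -3.76 (adjusted p = 0.00624, limma). Both were at background level in the hindlimbs at 96 h, so the sizes of these differences are uncertain. The 2 strongest of the 8 were gapdh.S pairs that disagreed with the third. Pairs 394 and 402 read 10.29 and 10.26 in hindlimbs at 96 h, where they were above background on none of the 3 arrays, while pair 397 read 14.58 and was above background on all 3. Tails therefore differed from hindlimbs at 96 h by 2.08 and 1.82 on pairs 394 and 402, and by -2.45 on pair 397 (adjusted p = 0.0017, 0.00211 and 0.00137, limma). At 24 h the same fit gave -2.01, -2.47 and -2.52 for pairs 394, 402 and 397. The lower gapdh.S level of tail thus rests on 3 agreeing pairs against hindlimb at 24 h and on 1 of 3 against hindlimb at 96 h.

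**Figure D5:**
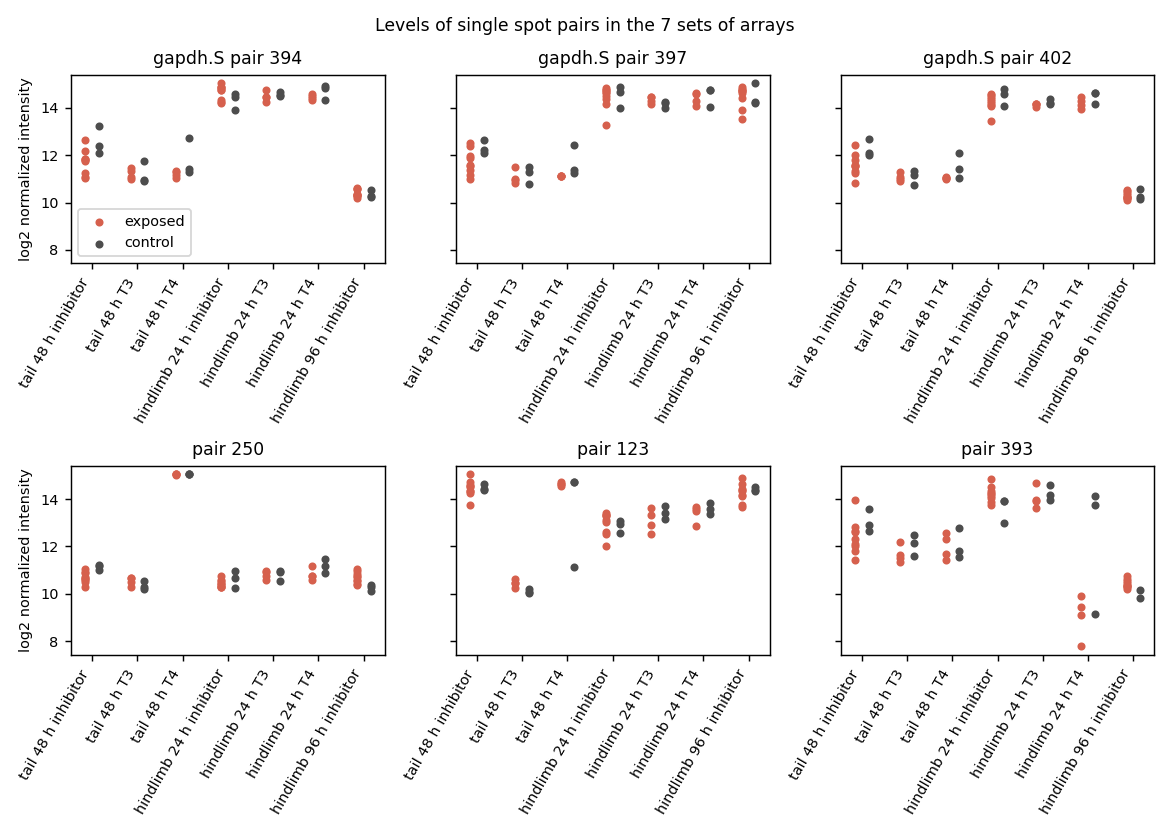
Normalized log2 intensity of 6 spot pairs in the 7 sets of arrays that share organ, time and exposure set, with all 64 arrays normalized together, exposed animals in red and controls in grey. Pairs 394 and 402 of gapdh.S read 10.10 to 10.62 on all 12 hindlimb arrays at 96 h while pair 397 read 13.54 to 15.03, and pair 250 read 15.03 to 15.04 on all 7 tail arrays of the T4 set.

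Such jumps of a single pair in a whole set of arrays were looked for after the values of gapdh.S were seen, with all 64 arrays normalized together. On the 12 hindlimb arrays at 96 h, exposed and control alike, gapdh.S pairs 394 and 402 were above background on none, and pair 397 on all. Pair 250 read 15.03 to 15.04 on the 4 exposed and 3 control tails of the T4 set, and the means of other groups of arrays lay between 10.27 and 11.17. Values of 15.03 to 15.04 lie at the top of the scale that quantile normalization gives every array. Their closeness is therefore no measure of spread, and the 3 control tails were deposited at 34917, 42305 and 37910. Pair 123 was above background on none of the 4 exposed and 3 control tails of the T3 set, where it read 10.04 to 10.63, and the means of other groups of arrays lay between 12.85 and 14.63. Pair 393 was above background on none of the 4 exposed hindlimbs of the T4 set, where it read 7.79 to 9.90, and on 2 of the 3 controls. It was also above background on no hindlimb array at 96 h. Pair 403 read 12.68 to 14.21 on the 4 exposed tails of the T4 set and 9.52 to 14.54 on the 3 controls. On the exposed tails of the inhibitor set it read 9.08 to 14.54. The difference of pair 250 between control tails and control hindlimbs is therefore that of the T4 set alone, and the cause of these jumps was not tested.

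The exposed animals of the 3 sets gave the same measure on 34 arrays that the control comparison did not use, although they were run and scaled in the same sets of arrays. With treatment as a term, 45 of 90 pairs differed between the 17 tails and the 17 hindlimbs (50%), 27 higher in tail (30%) and 18 lower in tail (20%). All 31 pairs called in controls had the same direction in exposed animals, and 29 of them passed there, which is 29 of the 31 control calls and 29 of the 45 calls in exposed animals. The other 2 were pair 356 (-0.33, adjusted p = 0.304) and pair 70 (0.34, adjusted p = 0.0664, limma). Pair 250 was among the 29 (1.05, adjusted p = 0.00617, limma), and on the 4 exposed tails of the T4 set it read 15.03 to 15.04. A shift of a whole set of arrays enters both the control and the exposed comparison, so the shared direction cannot tell such a shift from tissue. The count of 31 pairs with a shared direction was not set against the share over all tested pairs.

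Among the cell cycle genes, the differences in exposed animals were -2.47 for ccnd2.L, -1.71 for ccnd1.L, -1.33 for pcna.S and -0.96 for cdk1.S (adjusted p = 3.74e-12 to 0.00129, limma). Desmin differed by 3.49, with levels of 13.30 ± 0.48 in tails and 9.80 ± 0.40 in hindlimbs (SD, n = 17 each), and thdl18.S by 2.88, with levels of 13.13 ± 0.81 in tails and 10.25 ± 0.69 in hindlimbs. The SD of desmin over the 17 exposed tails is thus smaller than the 1.24 over the 9 control tails that include the array standing apart. The 3 gapdh.S pairs differed by -3.02 to -2.81, pkm.S by 2.49 and aldoc.L by 2.36. A further 12 pairs that were tested but not called in controls passed in exposed animals, among them hmgn3.L (-1.84, against -0.62 in controls), pabpc1.S (1.30, against 0.23), mt4.L (-0.90, against -0.18) and 3 of the 5 rpl8.S pairs. Whether these differed between exposed and control animals was not tested.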

How the data were processed

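The values in the authors' deposited table are linear intensity readings of single spots, from arrays hybridised with P32-labelled amplified RNA per the labels' protocols. Background had been subtracted by the authors, since 38.9 to 47.1% of the measured spots of an array lay below 0, and 0.739 to 8.25% of spots were blank. In each of the 7 sets of arrays exactly 1 array held whole numbers only, and sets were not on 1 scale. The sources used here do not name the scanner, the background method or the scaling. No 2 of the 18 arrays were identical (0 identical pairs), and the 2 spots of a pair correlated with r = 0.901 to 0.986.

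Using R 4.3.3 with limma 3.58.1 and statmod 1.5.0, intensities were corrected by normexp with an offset of 50, log2 transformed, quantile normalized over the 18 arrays and averaged over duplicate spots. Noise SD was 1.4826 times the median size of an array's negative values. Pairs above 2 noise SD on at least 3 arrays were fitted by lmFit and eBayes with tissue and exposure set, Benjamini-Hochberg adjusted over all 70 pairs at 0.05. A fold for a tissue with no array above background is a bound, taken against the higher of the dimmest pair above background and the pair itself on each array, and written as at least. Normexp acts like an added constant and shrinks changes of dim pairs. The number of arrays limits the precision: a 95% interval reached a median of 0.60 to either side of its difference. The procedure was also run on simulated arrays with known changes. These changes were put only into pairs above background on most arrays, and no set of arrays was shifted. The simulation therefore does not cover dim pairs or jumps of a whole set. Symbols came from the platform annotation for 237 of 406 pairs and were updated for 233 through gene identifiers to Xenopus_laevis_v10.1, used for names only. All called pairs with a symbol are named, and tested members of the gene lists are given as values. The members and lists were chosen with earlier results of these data known. Alternatives covered scaling, background, filters, array weights, the model and left-out arrays or sets.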

Additional observations from a re-analysis of the deposited data

Results flagged for a closer look

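Of 68 groups of 9 arrays examined for a single distant array, 11 held one whose gap to its nearest neighbour was large for the range of its group (above Dixon's critical value at the 95% level, which chance alone passes in about 1 of 20 groups). Tail replicate 3 of the T4 set gave 3 of these: pkm.S at 9.04 with the next tail at 11.85, des.1.S at 9.51 with the next tail at 12.37, and a correlation with the mean of the other tails of 0.498 with the next at 0.732. In the same array thdl17.L and the gapdh.S pairs read like the other tails. What sets this array apart was not tested.

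The other distant values each concern 1 array. Tail replicate 3 of the inhibitor set read 12.75 for pair 406. Among hindlimbs, replicate 2 of the T3 set read 8.78 for pkm.S, replicate 2 of the inhibitor set 11.60 for cdk1.S, replicate 1 of the inhibitor set 9.57 for ywhab.L, replicate 3 of the T4 set 14.77 for ldhb.S, replicate 2 of the T4 set 9.38 for rest.S and replicate 1 of the T4 set 11.84 for thdl18.S. Hindlimb replicate 3 of the inhibitor set had a noise SD of 1340 intensity units, with the next at 765.

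The tissue difference was not the same in the 3 exposure sets for pair 250 (adjusted p = 2.31e-07), pair 123 (adjusted p = 0.0155) and pair 404 (adjusted p = 0.0158) by the interaction test in limma. The tail levels of pair 250 averaged 10.85, 10.11 and 14.88 in the inhibitor, T3 and T4 sets, against 10.37, 10.54 and 10.90 in hindlimbs. Those of pair 123 averaged 14.22, 9.88 and 13.31 in tails, against 12.61, 13.17 and 13.35 in hindlimbs. Those of pair 404 averaged 12.15, 11.01 and 11.03 in tails, against 10.51, 10.94 and 11.28 in hindlimbs.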

How the results depend on the processing

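Of the 31 called pairs, 17 passed in every alternative that could test them, among them the 4 cell cycle genes, the 3 gapdh.S pairs, des.1.S, tpm4.S, pkm.S, aldoc.L, thdl17.L and rest.S, and 28 passed with each of the 18 arrays left out (not pair 70, pair 250 and ppp3ca.S). Counts of calls lay between 22 and 37 under the other settings, except 19 with a test against a 1.5-fold threshold, and between 29 and 35 with an array left out. The calls of ldhb.S and calb1.L were lost with median centring, in the deposited scaling and without the T3 set, those of ldhb.S and of 3 unnamed pairs that varied together without the inhibitor set, that of myf5.L with bright centring, a floor, the deposited scaling or without the inhibitor set, that of ywhab.L without the T4 set and that of thdl18.S without the T3 set. Pair 70 reversed with median centring (-0.15) and in the deposited scaling (-0.21). Without the inhibitor set, 11 of 30 calls were higher in tail. The count of pairs whose difference varied between sets was 14 with median centring, 1 in the deposited scaling, 5 with a floor and 18 with array weights, against 3, and 2 to 18 with an array left out, the 18 without tail replicate 3 of the T4 set. Tail against hindlimb at 96 h gave 19 to 30 calls with an array left out, the 19 without tail replicate 2 of the inhibitor set, and exposed animals gave 43 to 48. In exposed animals the deposited scaling gave 18 higher and 33 lower. The difference in pairs above background per array, -1.11, lay between -3.28 and 1.42 with an array left out and was above 0 in 6 of 18 cases. The causes of these changes were not tested. Equal replicate numbers did not pair the arrays: deviations of same-numbered tails and hindlimbs correlated at -0.16 to 0.28, over 0.1 in 4 of 9. With the replicate number as a block the counts were 30, 3, 26 and 44 for controls, sets, 96 h and exposed animals. Most pairs on the array were below background, so dim transcripts could not be compared.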
